A study of Mus musculus with 2 samples.

Results

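MHC class II-high tumour cells are the tumour cells of 4T1 tumours with the most class II transcripts, 1034 of 10335 tumour cells among 28971 cell barcodes. A barcode was taken as a tumour cell with at least 3000 UMIs (unique molecular identifiers, each standing for 1 captured transcript), at most 20% mitochondrial UMIs, and at least 5 UMIs and 10 per 10000 of the keratins Krt8 and Krt18. It also had to hold 0 UMIs of Ptprc, at most 1 of Lyz2 and C1qa together, under 20 per 10000 of Col1a1 and Col3a1, and under 50 per 10000 of S100a8 and S100a9. The cells of both libraries were then ranked together by the summed UMIs per 10000 of Cd74, H2-Aa, H2-Ab1 and H2-Eb1, and the highest 10% were taken. The 4T1 line is a triple-negative mouse mammary carcinoma line, and the tumours grew in BALB/c mice. The AptCD4-LNT library comes from mice given AptCD4-LNT in 3 doses of 5000000, 4000000 and 3000000 cells, spaced 3 days apart. The Untreated library comes from mice given PBS. Tumours were collected on day 9. Each of the 2 libraries pools 3 of them, so animals cannot be told apart and no difference between the libraries has a replicate check. Every comparison below is between these 2 libraries, or between cells within one, and intervals are exact 95% intervals for counting error only.

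MHC class II molecules are pairs of an alpha and a beta chain that present peptides to CD4+ T cells. Cd74, the invariant chain, escorts the pair through the cell, and H2-DM exchanges its remnant for peptide. Dendritic cells, B cells and macrophages carry class II as a rule, while epithelial cells can gain it under interferon-gamma, which acts through the transactivator Ciita. Ciita is drawn to an X box and a Y box before the class II genes, bound by the RFX and NF-Y factors.

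To show these boxes, the 150 bases before the annotated start are printed for 4 class II windows. Among the 7 kept windows with the Y box letters, these belong to the genes measured at 10 CPM or more. CPM stands for counts per 1000000 UMIs, with the UMIs of a group's cells summed. The printed bases are RefSeq sequences of GRCm38.p6, a build other than the GRCm39 of the counts, and of a reference strain other than BALB/c. Capitals mark the Y box letters GATTGG and the X box core AACNGATG, each searched on both strands. These letters were chosen after the sequences had been seen. The windows are chr17:34287824-34287973 on the minus strand for H2-Aa, and, on the plus strand, chr17:34305717-34305866 for H2-Eb1, chr17:34153041-34153190 for H2-DMb1 and chr17:34145099-34145248 for H2-DMb2.
H2-Aa: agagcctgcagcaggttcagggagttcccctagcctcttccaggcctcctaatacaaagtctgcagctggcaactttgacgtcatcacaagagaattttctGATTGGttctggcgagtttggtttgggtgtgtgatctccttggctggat
H2-Eb1: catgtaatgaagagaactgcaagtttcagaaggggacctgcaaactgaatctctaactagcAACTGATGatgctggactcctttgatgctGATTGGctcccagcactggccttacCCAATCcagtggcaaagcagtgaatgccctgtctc
H2-DMb1: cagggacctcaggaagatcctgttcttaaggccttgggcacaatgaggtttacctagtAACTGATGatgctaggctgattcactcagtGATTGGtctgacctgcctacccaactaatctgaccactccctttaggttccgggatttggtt
H2-DMb2: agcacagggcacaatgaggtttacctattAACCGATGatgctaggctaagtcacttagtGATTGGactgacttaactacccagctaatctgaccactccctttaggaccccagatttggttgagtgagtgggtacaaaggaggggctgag
H2-Eb1, H2-DMb1 and H2-DMb2 hold both sets of letters, and H2-Eb1 holds the Y box letters again on the other strand. In H2-Aa only the Y box letters were found. Over 32851 windows of this length, 10.9% held the Y box letters, 1.14% the X box core and 0.103% both. Windows were kept for 8 of the 11 class II genes, 9 windows in all. A limit on the chromosomes searched left out Cd74, a gene of the rule. The windows of H2-DMa held neither set of letters. A match of letters is a description and shows no binding.

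Fewer AptCD4-LNT tumour cells were class II-high. They were 77 of 3132 tumour cells (2.46%, 1.94 to 3.06%), against 957 of 7203 (13.3%, 12.5 to 14.1%) among Untreated cells. The AptCD4-LNT share was 5.40-fold lower (4.28 to 6.91). Tumour cells as such made up similar parts of both libraries, 35.1% and 35.9% of barcodes. The class II level itself was a continuum with no gap at the limit. The lowest cell inside lay at 56.9902 per 10000 and the highest outside at 56.9874, with 128 cells within 2 per 10000 above the limit and 147 within 2 below. The median over all tumour cells was 6.34 per 10000 in the AptCD4-LNT library and 28.1 in the Untreated library, and 8.33% and 3.21% of tumour cells had none of the 4 genes. Among the class II-high cells the medians were close, 65.4 and 67.7. The class is therefore treated here as a range of a level, and whether it is a separate type was not tested.

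**Figure D1:**
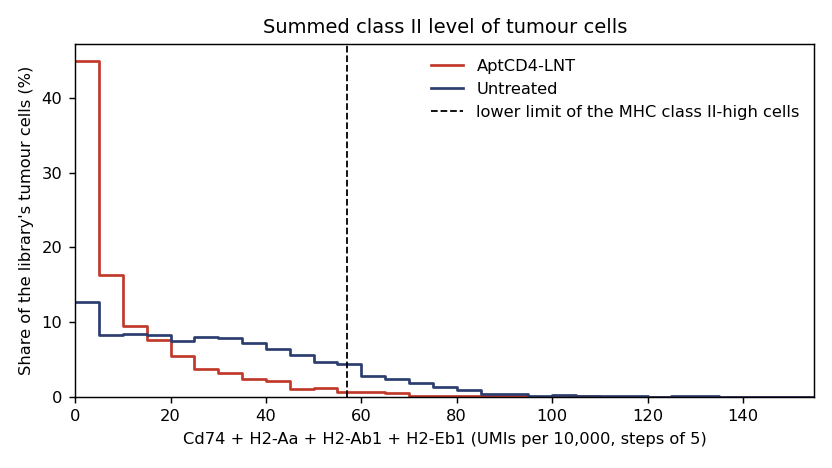
Share of each library's tumour cells (y axis, %) by summed UMIs per 10000 of Cd74, H2-Aa, H2-Ab1 and H2-Eb1 (x axis, steps of 5), with the lower limit of the class II-high cells as a dashed line. The AptCD4-LNT cells pile up near 0, with a median of 6.34, and the Untreated cells spread out to a median of 28.1, with no gap at the limit in either library.

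The AptCD4-LNT tumour cells held more UMIs each. Class II-high cells held a median of 17491 UMIs in that library and 7028 in the Untreated library, and the other tumour cells held 17516 and 7940.5. Depth was thus alike within the AptCD4-LNT library, while the Untreated class II-high cells held fewer UMIs than the other Untreated tumour cells. The median mitochondrial share in class II-high and other cells was 2.31% and 2.31% in the AptCD4-LNT library. It was 2.40% and 2.24% in the Untreated library. With every tumour cell thinned to 3000 UMIs before selection the share was 4.97-fold lower, and 56 of the 77 and 744 of the 957 cells were chosen again. With the selection made on 1 random part of 50% of the UMIs, the other part held 6761 CPM of the 4 genes in the chosen AptCD4-LNT cells against 1086 in the rest, and 6462 against 2663 in the Untreated library. Both parts come from the same cells and the same 4 genes, so this is a description and no independent support for the class. The libraries shared 42 barcodes, 6 of them tumour cells and 0 of them class II-high.

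The 4 genes of the rule are given as a description only. Cd74 stood at 2876 CPM in the AptCD4-LNT class II-high cells and 3003 in the Untreated ones. The chains followed at 1716 and 1724 for H2-Aa, 879 and 807 for H2-Ab1, and 1472 and 1463 for H2-Eb1. In the other tumour cells the libraries lay far apart, with Cd74 at 538 CPM in the AptCD4-LNT library and 1262 in the Untreated library. A ratio of class II-high over other cells is therefore taken against a lower floor in the AptCD4-LNT library, which bears on every such ratio below.

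The class II genes outside the rule were high in the same cells. H2-Ea, the alpha chain of the other pair, stood at 1734 CPM (1665 to 1805) in AptCD4-LNT class II-high cells and 191 (187 to 194) in the other AptCD4-LNT tumour cells, a log2 ratio of 3.19 (3.12 to 3.25). In the Untreated library it stood at 1870 (1840 to 1900) and 572 (565 to 578), a log2 ratio of 1.71 (1.68 to 1.74). H2-Ea was also the gene whose level followed the rule's sum most closely. The peptide exchange chains did likewise. H2-DMb2 had log2 ratios of 3.31 and 1.68, H2-DMb1 of 2.53 and 1.32, and H2-DMa of 2.37 and 1.33. Genes were counted as higher or lower past 1.5-fold among those with 10 CPM or more, with the 4 rule genes left out. By that count H2-Ea, H2-DMa, H2-DMb1 and H2-DMb2, of this list of 7, were higher in both libraries, where 0.659% of all genes tested were (53 of 8047). H2-DMb2 reached 10 CPM in the AptCD4-LNT library only through the class II-high cells, at 87.1 CPM against 8.79 in the others, so its call there supports nothing. H2-Oa and H2-Ob, which restrain H2-DM in B cells, had 2 and 0 UMIs in the AptCD4-LNT cells and 31 and 1 in the Untreated ones.

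Of the factors that drive class II genes, Ciita stood out. It stood at 33.4 CPM (24.4 to 44.5) against 5.90 (5.29 to 6.56) in the AptCD4-LNT library, and at 30.1 (26.5 to 34.2) against 14.3 (13.4 to 15.3) in the Untreated library. The AptCD4-LNT value falls under the 10 CPM limit over all tumour cells and so is in no count. The factors that sit on the X and Y boxes differed less. Rfx5, also under 10 CPM in the AptCD4-LNT library, had log2 ratios of 0.83 (0.14 to 1.44) and 0.23 (-0.09 to 0.54), and Rfxap of -0.04 and -0.11. Over the measured members of the list the median was 0.19 in the AptCD4-LNT library and -0.12 in the Untreated library, beside -0.01 in each over all genes.

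The endolysosomal genes that prepare peptides were mostly level. Only Ctsl, a cathepsin of many cell types that trims the invariant chain in thymic epithelium, passed the 1.5-fold limit, and it was lower. Ctsl stood at 835 against 1570 CPM in the AptCD4-LNT library and 1052 against 1767 in the Untreated library. Over all genes tested, 0.944% were past 1.5-fold lower in both libraries. Ctss, the cathepsin of professional antigen-presenting cells, stood at 7.98 and 13.9 CPM in the class II-high cells and 5.40 and 11.2 in the others. The thiol reductase Ifi30 had log2 ratios of -0.43 and 0.10. Costimulatory genes were scarce. Cd80 had 0 and 7 UMIs in all class II-high cells of the AptCD4-LNT library and the Untreated library, and Cd86 had 1 and 4. Cd40 stood at 9.44 against 5.85 CPM in the AptCD4-LNT library and 11.5 against 5.75 in the Untreated library. The adhesion molecule Icam1 was the member of that list past 1.5-fold in both libraries, with log2 ratios of 1.61 (1.23 to 1.97) and 0.59 (0.32 to 0.85). Over all genes tested, 0.659% were past 1.5-fold higher in both.

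Many genes induced by interferon-gamma were past 1.5-fold higher in the AptCD4-LNT class II-high cells, and fewer in the Untreated ones. The list of receptor and signalling genes had 3 of 12 past 1.5-fold higher in the AptCD4-LNT library, beside 4.31% of all genes, and 2 of 12 in the Untreated library, beside 1.02%, with 1 in both. The genes of the interferon-gamma receptor were nearly level, with log2 ratios of -0.23 and -0.06 for Ifngr1 and 0.53 and 0.23 for Ifngr2. Among the interferon-induced GTPases, which attack vacuoles of intracellular microbes, 10 of 10 measured members were past 1.5-fold in the AptCD4-LNT library and 4 of 12 in the Untreated library, beside the same shares of all genes. The medians were 1.51 and 0.38. Gbp4 had 197 against 39.6 CPM in the AptCD4-LNT library and 262 against 163 in the Untreated library. Igtp had 153 against 42.1 and 220 against 140. The upper values of both genes were thus closer between libraries than the lower ones.

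Of the ligands and enzymes induced by interferon-gamma, 3 of 6 were past 1.5-fold higher in the AptCD4-LNT library (4.31% of all genes) and 2 of 7 in the Untreated library (1.02%), where 1 was lower (1.68%). The chemokines that draw T cells through the receptor CXCR3 differed among themselves. Cxcl9 stood at 131 against 22.8 CPM in the AptCD4-LNT library and at 267 against 105.1 in the Untreated library. Cxcl11 had log2 ratios of 1.71 (1.37 to 2.03) and 0.82 (0.70 to 0.94). Cxcl10 had 0.04 (-0.23 to 0.30) and 0.48 (0.39 to 0.57). Cd274, which encodes PD-L1, stood at 16.0 and 30.8 CPM in the class II-high cells, against 6.68 and 21.3 in the others. Socs1, a brake on this pathway, had a log2 ratio of -0.33 (-0.88 to 0.18) in the AptCD4-LNT library and 0.72 (0.58 to 0.86) in the Untreated library.

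Class I genes, which present peptides to CD8+ T cells, were higher too. Of the 20 members, 17 passed 1.5-fold in the AptCD4-LNT library (4.31% of all genes) and 3 in the Untreated library (1.02%), with medians of 0.92 and 0.48. All 20 had a ratio above 0 in both libraries. The immunoproteasome subunit Psmb9 had log2 ratios of 1.36 and 0.64, the peptide transporter Tap1 1.34 and 0.51, and the class I chain H2-K1 0.78 and 0.54. Counts of H2-K1 and the other class I chains are uncertain, since near-identical family members can share reads and BALB/c differs from the reference at these genes. Type I interferon genes behaved unequally. In the AptCD4-LNT library 11 of 11 measured members of 24 were past 1.5-fold (4.31% of all genes), with a median of 0.98, and in the Untreated library 0 of 14 were higher (1.02%) and 1 was lower (1.68%), with a median of 0.23. Bst2, which tethers budding viruses, had 1.32 and 0.44, while Ifit3 was the lower member, at -0.73 (-1.11 to -0.38) in the Untreated library.

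**Figure D2:**
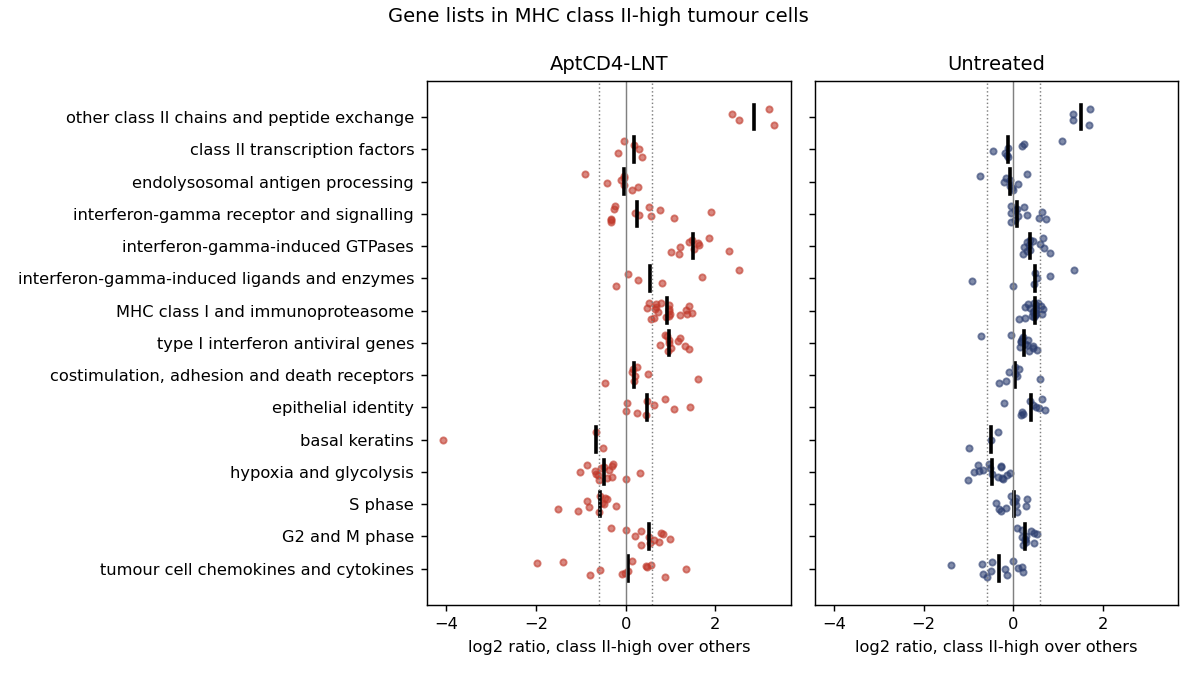
Log2 ratio of class II-high over other tumour cells (x axis) for each measured gene of 15 lists (rows), by library. Points are genes, black bars list medians and dotted lines the 1.5-fold limits. Class II partners lie farthest right, with medians of 2.86 and 1.51, and interferon and class I lists lie further right in the AptCD4-LNT library.

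The class II-high and the other tumour cells were epithelial by the rule, which asked for Krt8 and Krt18 in all of them. The list of epithelial genes had medians of 0.48 and 0.40, with 4 of 9 (4.31% of all genes) and 2 of 10 (1.02%) past 1.5-fold higher. Epcam stood at 1417 against 772 CPM in the AptCD4-LNT library and 1556 against 1008 in the Untreated library. The tight junction gene Cldn4 had log2 ratios of 1.09 and 0.57. Basal keratins lay the other way. Krt17 stood at 53.0 against 74.9 CPM in the AptCD4-LNT library and 71.5 against 142 in the Untreated library, and Krt14 had log2 ratios of -0.67 and -0.34. The mesenchymal genes had medians of -0.49 and -0.26. Past 1.5-fold lower were 2 of 7 measured (6.54% of all genes) and 0 of 7 (1.68%). The repressor of epithelial genes Zeb2, the lowest of them in the AptCD4-LNT library, had -1.34 (-1.80 to -0.91) and -0.53 (-0.69 to -0.37). Sparc had -0.19 and 0.26.

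Hypoxia and glycolysis genes were lower in the class II-high cells by the same median in both libraries, -0.48 and -0.48. With the highest 10% taken within each library the AptCD4-LNT median was -0.21. Past 1.5-fold were 6 of 15 in the AptCD4-LNT library (6.54% of all genes) and 5 of 15 in the Untreated library (1.68%), with 4 in both (0.944%). The mitophagy receptor Bnip3 stood at 67.5 against 137 CPM and 103 against 190. The glucose transporter Slc2a1 stood at 66.0 against 121 and 112 against 194. The same direction was seen in genes outside the lists. Hmox1, which degrades haem, had the lowest ratio of the genes named by rule in the Untreated library, at 41.4 (37.1 to 46.1) against 240 (236 to 244) CPM, and stood at 17.4 (11.2 to 25.9) against 122 (119 to 124) in the AptCD4-LNT library. Hilpda, a lipid droplet protein induced by hypoxia, had log2 ratios of -1.77 and -1.24. The EGF receptor ligand Areg had -2.87 and -0.84, and the neutrophil chemokine Cxcl5, of the cytokine list, had -1.97 and -1.39.

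Genes outside the lists that were higher in both libraries included several Ly6 genes. Ly6a, which encodes Sca-1, stood at 1498 against 380 CPM in the AptCD4-LNT library and 1990 against 1034 in the Untreated library. Ly6c1 had log2 ratios of 1.76 and 1.34, and Ly6e of 1.28 and 0.73. AW112010 had 1.71 and 1.02, and Ramp1, a partner of the CGRP receptor, 1.18 and 0.91. The other 10 named by the same rule were Fgfbp1, S100a14, Insig1, Plaat3, Sema4c, Cemip2, Tmem176a, Tmem176b, Npnt and Txnip. The 15 lower ones also held Ackr3, Fosl1, Raph1, Ptgs2, Fabp5, Higd1a, Mtss1, Fosl2, Tanc2, Egln1, Klf5 and Tiparp.

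Cell cycle genes gave different pictures by phase. G2 and M phase genes had medians of 0.52 and 0.27, with Cdc20 at 0.83 and 0.53. The AptCD4-LNT median ranged from -0.05, with the highest 20% of cells, to 1.35, with 0 UMIs of 7 myeloid genes. S phase genes had a median of -0.57 in the AptCD4-LNT library, where 5 of 11 were past 1.5-fold lower (6.54% of all genes), and 0.01 in the Untreated library. That S phase value ranged from -0.67 to -0.27 over the alternatives, the weakest with thinned cells. Other lists had medians closer to 0. Luminal and alveolar genes had medians of 0.15 and 0.06, oxidative phosphorylation genes 0.05 and 0.13, heat shock genes -0.18 and -0.20, and chemokines and cytokines 0.06 and -0.33. Bone matrix genes had 0.12 and 0.28 over 3 members. Of the complement genes, 1 and 4 were measured, with C3 at 1.06 in the AptCD4-LNT library.

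Likeness to the class II level was measured by Spearman correlation over single cells thinned to 3000 UMIs, 3132 in the AptCD4-LNT library and 7203 in the Untreated library. H2-Ea came first, with 0.613 and 0.718. H2-K1 followed with 0.454 and 0.436, Ly6a with 0.398 and 0.478, and H2-D1 with 0.388 and 0.424. The remaining 11 of the 15 nearest were Ifitm3, H2-DMb1, Psmb9, Psmb8, AW112010, H2-DMa, Ramp1, Bst2, Tmem176b, B2m and Epcam, down to 0.223 and 0.293. Over 8047 genes the median was close to 0 in both libraries. Cells of 1 library share its handling and depth, abundant genes reach higher values in sparse counts, and these correlations are descriptions.

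The class II-high cells overlapped other states only in part. Each state was again the highest 10% of the pooled tumour cells, by a list's sum. Of the class II-high cells, 22.1% (13.4 to 33.0%) in the AptCD4-LNT library and 39.0% (35.9 to 42.1%) in the Untreated library were also in the top for class I genes, against 2.52% and 9.08% of the other tumour cells. For the interferon-gamma GTPases it was 14.3% and 19.6%, against 2.98% and 11.9%. For the type I interferon genes it was 9.09% and 20.8%, against 2.98% and 11.8%. For hypoxia genes it was 2.60% and 3.76%, against 5.86% and 13.1%. Most class II-high cells were thus outside the top of the GTPases. The sums were taken without thinning, and the part of depth and counting error in the overlap was not tested.

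To compare the libraries at equal class II level, the pooled tumour cells were cut into 10 equal bins of it, bin 10 being the class II-high cells. The class II partners outside the rule were closest between the libraries in the middle and upper bins. Their sum was lower in the AptCD4-LNT library in 10 of 10 bins, at 18.3 against 50.3 CPM in the lowest, 386 against 410.4 in bin 5 and 2223 against 2431 in the highest. In bin 5, H2-Ea stood at 266 CPM in the AptCD4-LNT library and 272 in the Untreated library, and Ciita at 9.78 and 11.7. The interferon-gamma GTPases lay further apart. Their sum was lower in the AptCD4-LNT library in 10 of 10 bins, at 241 against 632 CPM in the lowest bin, 629 against 1249 in bin 5 and 1454 against 1688 in the highest. The type I interferon genes were also lower in 10 of 10, at 556 against 1107 in the lowest bin and 1961 against 2134 in the highest. The gap between the libraries was thus narrowest, as a ratio, near the top. With the bins cut on 3000 UMIs of each cell, an alternative chosen after seeing the data, the sums of the class II partners, the GTPases and the type I interferon genes were again lower in 10 of 10. The 4 rule genes were then lower in the AptCD4-LNT library in each bin too, so the class II level was not equal. In bin 5 of that cut they stood at 1476 against 1780 CPM, and H2-Ea at 229 against 309.

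Hypoxia genes ran the other way in the Untreated library, from 7461 CPM in bin 3 to 4075 in the highest. In the AptCD4-LNT library their highest sum was 4784, in bin 4, and their lowest 3123, in the highest bin. Krt17 went from 458 to 71.5 along the Untreated bins and stayed between 52.5 and 112 along the AptCD4-LNT ones. These sums differ in cell number, with 716 AptCD4-LNT and 318 Untreated cells in the lowest bin and 77 and 957 in the highest.

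**Figure D3:**
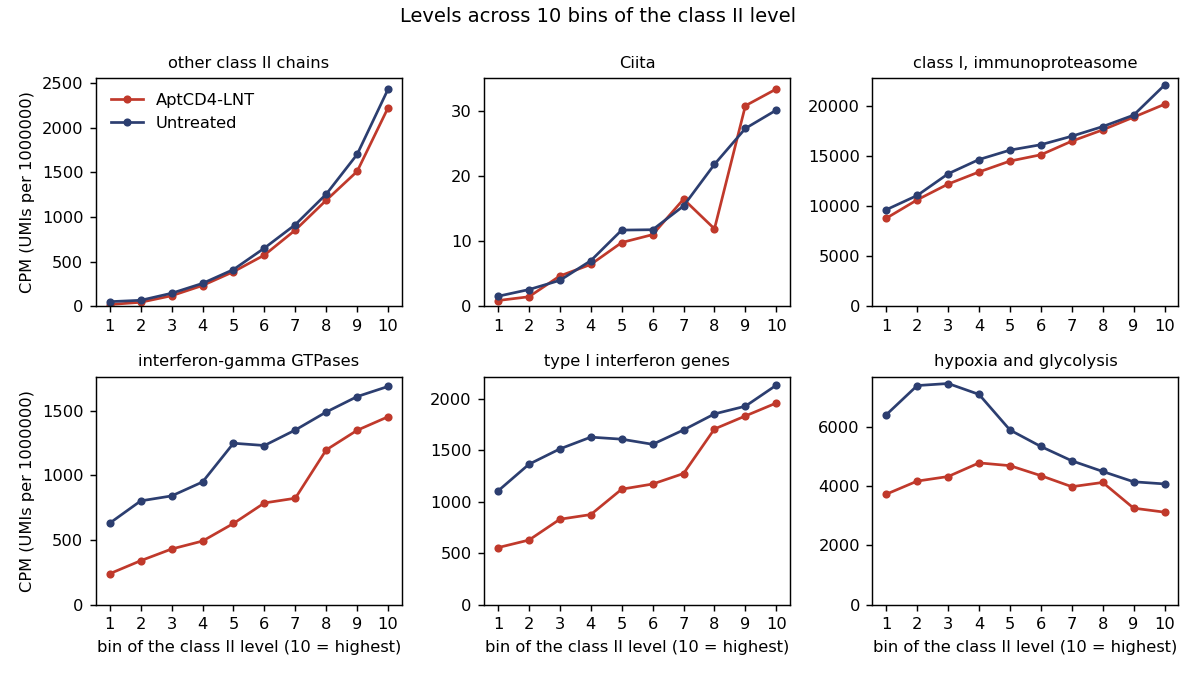
CPM (y axes, from 0) in each bin of the pooled class II level (x axes) for 5 gene lists and Ciita, by library. The AptCD4-LNT line lies below the Untreated line in 10 of 10 bins for the class II partners, the GTPases, the type I interferon genes and the hypoxia genes.

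Within the class II-high cells, the AptCD4-LNT and Untreated libraries were close in the class II, GTPase, class I and type I interferon lists and further apart in the ligand, hypoxia, S phase, immediate early, NF-kB and cytokine lists. Of 8235 genes, 534 were past 1.5-fold higher in the AptCD4-LNT library (6.48%) and 313 lower (3.8%). Those counts rest on 1377801 UMIs of 77 cells, so that a gene at 10 CPM has few UMIs there, and they were 277 and 114 with the highest 10% taken within each library. In the other tumour cells 2.15% of genes were higher and 1.69% lower. The other class II chains had a median log2 ratio, AptCD4-LNT over Untreated, of -0.13 in the class II-high cells and -1.47 in the other tumour cells. The interferon-gamma GTPases had -0.04 and -1.26, the class I genes -0.03 and -0.46, and the type I interferon genes -0.07 and -0.88, beside 0.05 and 0.04 over all genes. The near-equal class II level of the chosen cells was set by the rule. With the highest 10% taken within each library, the other class II chains had -0.79 and the GTPases -0.39. Whether the ratios differ between class II-high and other cells could not be tested with 1 library each.

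The ligand list kept a lower median, -0.60, which ranged from -0.63 to -0.06 over the alternatives. In the other tumour cells the median of this list was -0.71. Cxcl9 stood at 131 CPM (113 to 152) in the AptCD4-LNT class II-high cells and 267 (256 to 279) in the Untreated ones, a log2 ratio of -1.02 (-1.25 to -0.80). The ratio of Cxcl9 was further from level in the other tumour cells, at -2.21 (-2.29 to -2.12). In the class II-high cells Socs1 had -1.44 (-2.01 to -0.93) and Irf8, an interferon-induced transcription factor, -0.85 (-1.16 to -0.56). Hypoxia genes were lower as well, with 6 of 15 past 1.5-fold (3.8% of all genes) and a median of -0.52. That median was -0.44 in the other tumour cells. S phase genes had medians of -0.67 and 0.03 in the class II-high and the other tumour cells, and the first was -0.35 with the highest 10% taken within each library. Chemokines and cytokines had 0.72 and 0.29.

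Immediate early and NF-kB genes were higher in the AptCD4-LNT class II-high cells. Of 13 immediate early genes, which respond within minutes to many stimuli and to tissue dissociation, 9 were past 1.5-fold (6.48% of all genes), with a median of 0.76. In the other tumour cells 10 were (2.15% of all genes), with a median of 0.75. Btg2 had a log2 ratio of 1.17 (1.05 to 1.30) and Zfp36 of 1.09 (0.97 to 1.21). Of 10 NF-kB targets 5 were past 1.5-fold (6.48% of all genes), with a median of 0.64. In the other tumour cells 2 were (2.15% of all genes), with a median of 0.36. Their feedback inhibitor Tnfaip3 stood at 192 against 65.9 CPM in the class II-high cells. There the neutrophil chemokine Cxcl1 stood at 1550 against 667, the monocyte chemokine Ccl2 at 267 against 102, and Il23a, a cytokine subunit, at 247 against 92.8. In the other tumour cells Tnfaip3 stood at 164 against 69.7 CPM, Ccl2 at 191 against 116 and Il23a at 82.3 against 62.1. The part that dissociation had in these values was not tested.

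**Figure D4:**
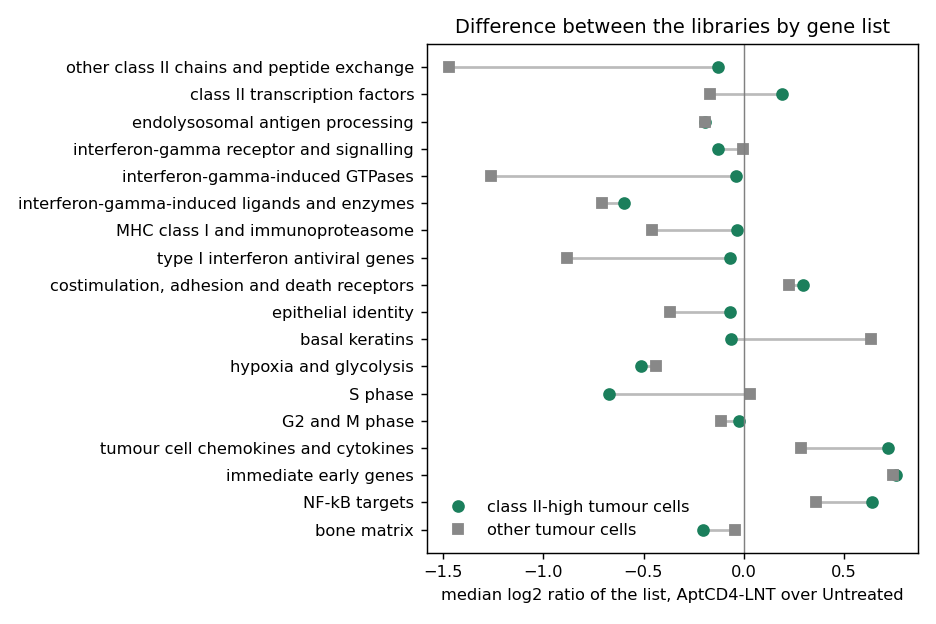
Median log2 ratio of AptCD4-LNT over Untreated (x axis) for 18 gene lists (rows), in class II-high cells (circles) and other tumour cells (squares). The class II, GTPase, class I and type I interferon lists lie near 0 in the class II-high cells and at -1.47, -1.26, -0.46 and -0.88 in the others, while immediate early genes lie near 0.75 in both.

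Other genes with large differences between the libraries' class II-high cells were named by size alone. Higher in the AptCD4-LNT library were also Gm17056, Gm14636, Col1a1, C3, Dnajb1 and Col3a1. Col1a1 stood at 79.1 against 28.4 CPM and Col3a1 at 82.7 against 35.4. In the other tumour cells Col1a1 stood at 66.9 against 24.8 and Col3a1 at 95.3 against 37.0. Summed fibroblast markers moved with them, at 106 and 49.1 CPM in the class II-high cells and 108 and 51.3 in the other tumour cells, and their part in these values was not tested. Lower were Ibsp, a bone matrix protein gene, at 24.0 against 106 CPM, and Mgp, an inhibitor of calcification, at 472 against 927. In the other tumour cells Ibsp stood at 74.1 against 152 and Mgp at 736 against 697. Ly6c1, Notch2, Sdf2l1, Pclaf, Slc39a1, Gm37376 and Tipin made up the remaining lower ones beside Cxcl9. Ly6c1 had log2 ratios of -1.09 in the class II-high and -1.50 in the other tumour cells, and Gm37376 of -0.93 and -1.30. Pclaf had -0.94 and -0.05, and Tipin -0.91 and -0.02.

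Markers of the cells that carry class II as a rule were low in the class II-high cells. Their part in the class II level was not tested. The 12 macrophage markers summed to 57.3 CPM in the AptCD4-LNT class II-high cells and 68.6 in the other tumour cells, and to 106 and 107 in the Untreated library. Those sums stood between 57.3 and 73.3 across the AptCD4-LNT bins and between 93.0 and 122 across the Untreated ones. C1qb stood at 3.63 and 6.95 CPM in the class II-high cells of the AptCD4-LNT library and the Untreated library, and at 2500 and 2605 in macrophages. Macrophages held 4809 and 6359 CPM of Cd74. The 9 dendritic cell markers summed to 18.1 and 13.0 CPM in the class II-high cells, against 11.9 and 12.3 in the others, with 5 of 9 at 0 UMIs in each library, among them Flt3, Xcr1 and Clec9a in both. The 7 B cell markers summed to 1.45 and 0.248, against 0.346 and 0.285, with 5 of 7 at 0 in each library. The 7 T and NK cell markers summed to 2.90 and 10.9, against 3.11 and 8.62, with 5 of 7 at 0 in the AptCD4-LNT library and 1, Cd3e, in the Untreated library. The 8 neutrophil markers summed to 425 and 403 CPM, against 323 and 277 in the other tumour cells, and the 7 endothelial markers to 37.0 and 37.6, against 34.6 and 32.8. Because the tumour cell rule had already limited Lyz2, C1qa and Ptprc, low values of their kind are partly set by it. Requiring 0 UMIs of 7 myeloid genes left 1552 and 3663 tumour cells. The highest 10% of these, taken anew, were 36 and 486 cells, a share 5.72-fold lower in the AptCD4-LNT library.

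RNA released into the suspension gives class II UMIs to cells that do not express it, so detection was set beside neutrophils and fibroblasts with each cell thinned to 1000 UMIs. Cd74 was detected in 94.8% (87.2 to 98.6%) and 96.2% (94.8 to 97.4%) of class II-high cells, and in 33.5% (31.8 to 35.2%) and 61.4% (60.2 to 62.6%) of the other tumour cells. It was detected in 6.31% (5.08 to 7.74%) and 15.9% (13.4 to 18.6%) of neutrophils and in 4.76% (3.26 to 6.69%) and 11.5% (8.69 to 14.9%) of fibroblasts. Unthinned median depths were 1490.5 and 1402 UMIs in the neutrophils, and 11922 and 5861 in the fibroblasts. Detection in neutrophils and fibroblasts was thus higher in the Untreated library, and the level of Cd74 in the class II-high cells was fixed by the rule. H2-Ea, which the rule did not use, was detected in 80.5% (69.9 to 88.7%) and 83.1% (80.5 to 85.4%) of class II-high cells and in 13.7% (12.5 to 15.02%) and 35.2% (34.1 to 36.4%) of the other tumour cells. It was detected in 3.598% (2.67 to 4.73%) and 11.2% (9.09 to 13.6%) of neutrophils and in 2.61% (1.53 to 4.15%) and 6.93% (4.72 to 9.74%) of fibroblasts. At all UMIs, C1qb was detected in 6.49% and 5.54% of class II-high cells and 7.10% and 6.77% of the other tumour cells.

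**Figure D5:**
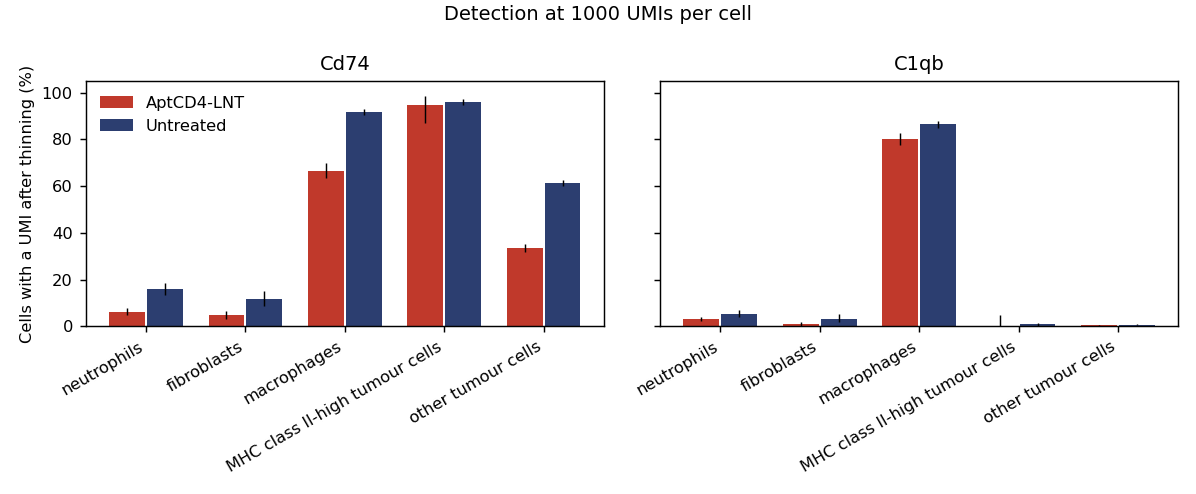
Share of cells with at least 1 UMI of Cd74 (left) or C1qb (right) after thinning to 1000 UMIs (y axis, %), by cell class and library, with exact 95% intervals. Cd74, a gene of the rule, was found in 94.8% and 96.2% of class II-high tumour cells and C1qb in 0 of 77 and 8 of 957, while macrophages held both.

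Scrublet, which marks barcodes that resemble mixtures of 2 cells, called 1 of 77 (1.30%) and 9 of 957 (0.940%) class II-high cells doublets. Of the other tumour cells it called 0.327% and 2.58%, and of all barcodes scored 2.26% and 7.45%. Without the called cells the share was 5.56-fold lower in the AptCD4-LNT library.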

How the data were processed

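The 2 deposited matrices hold counts, that is UMI counts per gene and barcode that were not normalised, per the file headers, for 55357 genes. Cell Ranger 7.2.0 and GRCm39 are named in the submitters' processing notes. The lowest barcode total was 500 UMIs in both libraries, which held 98968100 (AptCD4-LNT) and 131295224 (Untreated) UMIs. Emptier droplets were not analysed here.

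UMIs were summed over the cells of a group and given as CPM (per 1000000 UMIs). Ratios are on the log2 scale with exact conditional binomial intervals. With 1 library per group there was no test and no p-value. Genes with 10 CPM or more were counted past 1.5-fold. The members and the 24 gene lists were chosen with earlier results of these data known. Beside the list genes, those named have 50 CPM or more and an interval that leaves out 0: the 15 with the largest smaller ratio in each direction in both libraries, the 10 with the largest ratio in each direction between libraries (there list genes could return), and the 15 most like the class II sum. Neutrophils, fibroblasts and macrophages were set by 200 per 10000 of S100a8 and S100a9, 100 of Col1a1 and Col3a1, and 20 of macrophage genes. Bins of the class II level gave tied cells their average rank. Doublets were marked with Scrublet at its automatic threshold and left out only as an alternative. Some genes that these rules name are not reported here. The 11 alternatives listed at the outset and 1 added later are reported at the end.

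On simulated Poisson counts with 200 changed genes, intervals covered the set ratio for 95.4% of 8304 genes at the AptCD4-LNT depth and 95.3% of 8207 at the Untreated depth. At the AptCD4-LNT depth, 3.02% of unchanged genes lay past 1.5-fold. The simulated counts held no spread between cells or animals. They therefore check the code and do not show that the intervals cover such spread in these data. The software was Python 3.11.15, scanpy 1.11.5, numpy 2.4.6, scipy 1.17.1, pandas 2.3.3 and matplotlib 3.10.9.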

Additional observations from a re-analysis of the deposited data

Results flagged for a closer look

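For 15 of the genes reported here, class II-high over other tumour cells had opposite signs in the 2 libraries, with both counting intervals leaving out 0. The difference between libraries was not tested, and genes were singled out over many. The log2 ratios in the AptCD4-LNT and Untreated libraries follow in that order. Above 0 in the AptCD4-LNT library and below 0 in the Untreated library were C3 (1.06 and -0.14), Ccl5 (1.34 and -0.49), Il1a (0.89 and -0.58), Gm14636 (0.89 and -0.32), Ccl2 (0.49 and -0.18), Lcn2 (0.41 and -0.46), Nfkbia (0.28 and -0.23) and Vcam1 (0.20 and -0.17). The other way round were Nr4a1 (-1.36 and 0.27), Tyms (-0.83 and 0.29), Pclaf (-0.77 and 0.12), Mgp (-0.64 and 0.41), Mcm4 (-0.42 and 0.29), Dusp1 (-0.26 and 0.12) and Sparc (-0.19 and 0.26). Il1a had -0.43 in the AptCD4-LNT library with the highest 5% of cells, and Pclaf 0.12 with 0 UMIs of 7 myeloid genes.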

How the results depend on the processing

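The cells of 77 AptCD4-LNT barcodes and 1 library per condition limit every comparison. No paired analysis was possible because each group holds 1 library. The share of class II-high cells was 7.06-fold lower in the AptCD4-LNT library with the highest 5% of cells, and 4.97- to 5.81-fold lower under the other alternatives that could move it. Taking 10% within each library equalises it by construction. Past 1.5-fold between the libraries' class II-high cells, genes higher and lower in the AptCD4-LNT library numbered 904 and 721 with the highest 5%, 294 and 183 with the highest 20%, 277 and 114 within each library, 1221 and 1028 with thinned cells, and 898 and 598 with 0 UMIs of 7 myeloid genes. With selection on 50% of UMIs 557 were lower. Without the filter on low levels they were 3107 and 5958, and 539 and 5118 genes were higher and lower in class II-high than in other cells of both libraries, since genes at 0 in 1 group then count. These settings differ in numbers of cells and of UMIs, and the part of either in the counts was not tested. With thinned cells the groups held 85 and 972 cells, against 77 and 957 in the main setting.

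All 13 list medians past 1.5-fold kept their direction under the alternatives that gave them a value, 12 of them with thinned cells. With 10% taken within each library, 8 stayed past 1.5-fold. These counts include the medians of the 4 rule genes over other cells in each library, whose direction the rule had set. The AptCD4-LNT median of the class II partners was 2.20 with thinned cells. The gene ratios past 1.5-fold numbered 264, with those of the 4 rule genes over other cells among them. Ratios that took the opposite sign under an alternative follow, and the cause was not tested. In AptCD4-LNT class II-high over other cells, thinning gave Usp18 -0.97, Ung 0.055 and Aurka -0.79, the highest 5% Il1a -0.43, the highest 20% Ibsp 0.21, 10% within each library Ibsp 0.072, and 0 UMIs of 7 myeloid genes Pclaf 0.12. Between the libraries' class II-high cells, the highest 5% gave Cxcl10 0.32, Cxcl5 1.16 and Il1a -0.41, the highest 20% Cxcl5 0.23, 10% within each library Cxcl5 1.46 and Areg 0.22, thinning Wars1 0.16 and Bnip3 0.29, 0 UMIs of 7 myeloid genes Cxcl2 0.35, and selection on 50% of UMIs Nfya -0.35 and Fosl1 -0.038.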
